A study of Mus musculus with 12 samples.

Results

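Astrocyte markers were examined in mouse brain glioma as a set of 10 genes fixed by name: Aqp4, Aldh1l1, Aldoc, S100b, Gja1, Gjb6, Agt, Mlc1, Clu and Slc4a4. All probes annotated to them on the bead array were taken. The annotation used here named 15 such probes for 9 of the genes and none for Clu, whose level was therefore not analysed here. Of the 15 probes, 11 had a signal above background (detection p below 0.05) on at least 3 of the 12 arrays and were tested, and these represent 8 genes, among 28002 probes and 14155 genes tested in all.

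The arrays came from 12 animals of the C57BL/6 background, 6 called Tlx intact and 6 called Tlx knockout. Both groups carried floxed Tlx alleles (Tlx f/f) and Nestin-Tva (N-Tva), by which the Nestin promoter drives a viral receptor, and in both gliomas had grown for 2.5 weeks before tamoxifen was injected. Knockout animals carried Nestin-CreERT2 (CRE+), a tamoxifen-activated recombinase driven by the Nestin promoter, and intact animals were littermates without it (CRE-), so that presence of Cre and loss of Tlx go together. The genotype labels of single animals give a different number after CreERT for each, whereas the protocol names CreERT2. Cells in which the recombinase was not activated keep their Tlx alleles. Tumour tissue, taken from animals whose neurological symptoms had become severe, was profiled in bulk. Age at collection ran from 38 to 51 days in intact animals and from 48 to 79 days in knockout animals, a mean difference of 17.3 days (SE 4.63, exact two-sided permutation p = 0.00649, n = 6 per group). Of the knockout animals, 5 were past the oldest intact one. Age therefore moved with the groups in every comparison, and its part in the gene differences was addressed only through a fit with age as a covariate.

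Astrocytes are the glial cells that ensheathe synapses and vessels, clear glutamate and potassium, and hold brain water in balance. They are joined into networks by gap junctions built of connexins, and their endfeet around vessels are rich in the water channel aquaporin-4. Tlx, also named Nr2e1, is a nuclear receptor that keeps neural stem cells dividing, and in such cells it is known to repress astrocyte genes, among them Gfap, S100b and Aqp4. The comparison of knockout with intact tumours asks how these markers stand when Tlx is deleted in an established glioma.

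Promoter sequences were available from RefSeq (GRCm38.p6) for 8 of the 10 genes, in 10 windows, and 3 are shown as the 250 bases before the annotated start. Gja1 and Aldh1l1 are given because their levels followed each other most closely over the arrays, and S100b because its difference between groups ran opposite to the rest. Capitals mark TTGGC, or GCCAA where it lies on the other strand, the core of the motif bound by nuclear factor I proteins, which are known regulators of astrocyte genes.
Gja1, chr10:56377050-56377299, plus strand: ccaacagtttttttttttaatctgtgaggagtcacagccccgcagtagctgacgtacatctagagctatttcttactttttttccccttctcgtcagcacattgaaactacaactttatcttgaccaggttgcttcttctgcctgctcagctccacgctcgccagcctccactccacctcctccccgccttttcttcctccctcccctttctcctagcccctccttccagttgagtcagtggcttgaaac
Aldh1l1, chr6:90550543-90550792, plus strand: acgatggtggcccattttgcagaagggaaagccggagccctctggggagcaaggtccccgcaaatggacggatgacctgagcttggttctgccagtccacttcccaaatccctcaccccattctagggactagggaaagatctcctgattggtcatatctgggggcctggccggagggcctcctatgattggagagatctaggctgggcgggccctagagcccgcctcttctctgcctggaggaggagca
S100b, chr10:76253586-76253835, plus strand: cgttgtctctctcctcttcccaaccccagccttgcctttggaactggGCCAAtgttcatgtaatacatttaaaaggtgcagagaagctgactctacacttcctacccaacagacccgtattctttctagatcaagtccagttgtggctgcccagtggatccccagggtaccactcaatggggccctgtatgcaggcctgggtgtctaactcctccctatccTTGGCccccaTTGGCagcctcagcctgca
The S100b window held 3 copies of TTGGC and those of Gja1 and Aldh1l1 held 0, while 41.5% of all 32851 mouse promoter windows of this length held at least 1. The Tlx half-site AAGTCA, searched on both strands, was found in 0 of the 10 windows and in 13.1% of all windows. TTGGC was present in 6 of the 10 windows, among them those of Agt, Mlc1 and Slc4a4, so S100b was not alone in holding it. These counts describe letters in the windows shown and nothing about binding.

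The leading probe of each of the 8 tested genes was above background on 12 of 12 arrays, a count that the filter on detection and the choice of the brightest probe favour. Array depth was alike, with median signals of 134.5 to 161.3 intensity units and 50.8% to 54.8% of probes above background. Nr2e1 itself, read by a probe close to background, had a mean difference of -0.58 log2 units (SE 0.26, limma adjusted p = 0.405). It was above background on all 12 arrays, from 5.37 to 6.65 in intact and from 4.72 to 6.21 in knockout tumours, so the groups overlapped. The column order of the deposited table places 5 knockout arrays and 1 intact array in the first 6 columns, and 5 intact arrays and 1 knockout array in the last 6, and no label says what the columns stand for. Of the animal numbers in the labels, those of 2 intact and 3 knockout animals were grouped as 1 shared series, those of the other 3 knockout animals as another, and the other 4 intact animals, whose numbers form no common series, were put together. Fits with the column set or this label series as a block were among the alternatives. In tumour tissue as a whole, fewer cells that carry these markers, tumour cells or others, and less of their RNA per cell cannot be told apart.

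No astrocyte marker passed the test between knockout and intact tumours. By limma with Benjamini-Hochberg adjustment over all genes, 0 of 8 markers were called in either direction, beside 2 of 14155 genes in all (0.0141%), 1 higher and 1 lower in knockout tumours (0.00706% each). Over all genes that count rested on single arrays, being 104 without intact replicate 1, 5 without intact replicate 2 or knockout replicate 1, and 0 to 3 in the other alternatives, and 0 markers were among the calls in each case. Of the 11 probes 0 were called, beside 0.0107% of all probes. At an unadjusted p below 0.05 there were 2 of 8, S100b with a higher and Aldh1l1 with a lower knockout mean, against 11.9% of all genes (6.22% higher and 5.72% lower). The knockout mean was lower for 7 of 8 markers, against 50.4% of all genes, and the median difference was -0.48 log2 units against -0.0026 over all genes. In 0 of 8 markers did the groups separate without overlap, against 0.65% of all genes. The median was -0.25 with the column set and -0.08 with the label series as a block. Without knockout replicate 4 the median was -0.11, 6 of 8 means were lower, and 0 markers had an unadjusted p below 0.05.

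**Figure D1:**
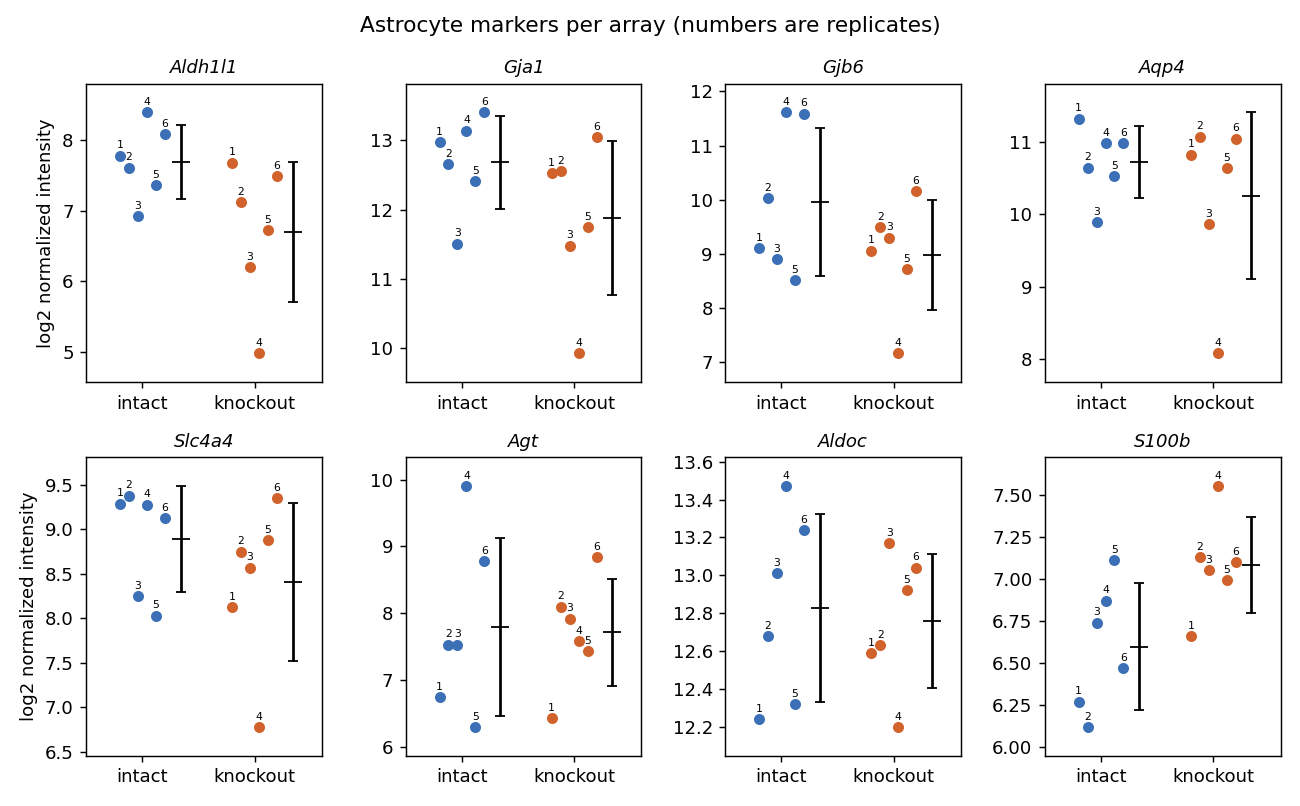
Log2 normalized intensity of the leading probe of each of the 8 tested astrocyte markers (vertical axes, each to its own scale) on 6 intact (blue) and 6 knockout (orange) arrays, with replicate numbers, group means and SD bars. Knockout replicate 4 lies lowest for Aldh1l1, Gja1, Gjb6, Aqp4, Slc4a4 and Aldoc and highest for S100b, and the groups overlap in every panel.

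Aldh1l1 encodes a folate enzyme of one-carbon metabolism that marks astrocytes throughout the brain. Intact tumours read 6.92 at the lowest, 7.70 at the median and 8.39 at the highest, in log2 normalized intensity, and knockout tumours 4.98, 6.92 and 7.68. All 6 knockout arrays were below the intact median and 3 were below every intact array. The mean difference was -0.99 log2 units (SE 0.40, 95% interval -1.86 to -0.12), a knockout level of 50.3% of the intact one, with a limma adjusted p of 0.361. With the column set as a block it was -0.29, and without knockout replicate 4 it was -0.65. It was -0.50 without background correction and -0.48 in the authors' processed intensities. On knockout replicate 4 the raw signal of the probe was 137, close to the median of that array, 134.7. A second Aldh1l1 probe was above background on 0 of 12 arrays.

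The connexins came next. Gja1 encodes the main gap junction protein of astrocytes, and Gjb6 a connexin found in mature astrocytes of grey matter. For Gja1, intact tumours ran from 11.51 through a median of 12.82 to 13.40, and knockout tumours from 9.93 through 12.14 to 13.04. The low end was knockout replicate 4, and knockout replicate 6, at 13.04, stood within the intact range. The difference was -0.80 (SE 0.46, interval -1.80 to 0.19, limma adjusted p = 0.517), and it shrank to -0.07 with the column block and to -0.41 without knockout replicate 4.

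For Gjb6, intact tumours read 8.52, 9.56 and 11.61 at the lowest, median and highest, and knockout tumours 7.17, 9.18 and 10.16. The intact spread was wide because replicates 4 and 6, at 11.61 and 11.59, lay apart from the other 4, which reached 10.03. From the lowest to the highest of all arrays Gjb6 spanned 21.7-fold, the widest range of the 8 markers. The difference between groups was -0.98 (SE 0.60, interval -2.26 to 0.31, limma adjusted p = 0.551). It was -0.10 with the number series of the labels as a block, -0.53 with the column block and -0.61 without knockout replicate 4.

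Aqp4 and Slc4a4 serve water and ion balance. Aqp4 encodes the water channel of the endfeet. Intact tumours ran from 9.89 through 10.82 to 11.33 and knockout tumours from 8.08 through 10.74 to 11.08, so that the medians lay close together and 2 knockout arrays were below every intact one. The mean difference of -0.47 (SE 0.45, interval -1.43 to 0.49, limma adjusted p = 0.711) was -0.04 without knockout replicate 4, the array at 8.08. With the column block its sign turned, to 0.10. The other Aqp4 probe, above background on 10 of 12 arrays, differed by -0.29 (SE 0.23), and on it knockout replicate 4 was the highest array at 5.70.

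Slc4a4 encodes the sodium bicarbonate cotransporter through which astrocytes regulate pH. Its leading probe read 8.03, 9.21 and 9.38 in intact tumours and 6.78, 8.66 and 9.35 in knockout tumours, lowest, median and highest. Knockout replicate 4 was again the lowest array, 1 knockout array of 6 lay above the intact median, and the groups overlapped. The difference was -0.48 (SE 0.38, interval -1.31 to 0.34, limma adjusted p = 0.653), and -0.16 without that array. A second Slc4a4 probe differed by -0.24 (SE 0.19), and the remaining probes were above background on 0 and 2 arrays.

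Agt and Aldoc had group means that lay almost together. Agt encodes angiotensinogen, the precursor of angiotensin, which astrocytes make in the brain. Intact tumours ran from 6.30 through 7.53 to 9.90 and knockout tumours from 6.43 through 7.75 to 8.84. The extremes were intact replicates 5 and 4, so that the range within the intact group, 3.60 log2 units, exceeded every difference between groups. The difference was -0.08 (SE 0.55, interval -1.26 to 1.10, limma adjusted p = 0.971), and it turned to 0.34 without intact replicate 4 and to 0.99 with the label series as a block. An interval of this width leaves room for a difference of more than 1 log2 unit in either direction.

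Aldoc encodes aldolase C, the brain form of a glycolytic enzyme. Its leading probe read 12.24, 12.84 and 13.47 in intact and 12.20, 12.78 and 13.17 in knockout tumours, a difference of -0.07 (SE 0.23, interval -0.57 to 0.44, limma adjusted p = 0.931). The sign turned when intact replicate 4 (0.06), intact replicate 6 (0.01) or knockout replicate 4 (0.04) was left out, with array weights (0.10), and with the label series as a block (0.40). The second Aldoc probe, dimmer by raw signal, differed by -0.29 (SE 0.30).

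S100b was the marker with a higher knockout mean. It encodes a calcium-binding protein of astrocytes, which cells of the oligodendrocyte lineage also make. Intact tumours ran from 6.12 through 6.60 to 7.11 and knockout tumours from 6.66 through 7.08 to 7.55. All 6 knockout arrays were above the intact median and 2 were above every intact array. The difference was 0.49 (SE 0.19, interval 0.07 to 0.90, limma adjusted p = 0.35), 140% of the intact level. It kept its sign under each of the 24 alternatives, at 0.23 to 0.88, and was called under 0 of them. Raw signals of the probe were 195.6 to 287.8 intensity units, not far above the array medians.

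Mlc1, which encodes a membrane protein of astrocyte endfeet, was not well above background on 11 of 12 arrays. The exception was knockout replicate 4, with a detection p of 0.00177 and a normalized value of 5.79, against 4.17 to 5.06 on the 6 intact arrays. No fold is given for it.

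**Figure D2:**
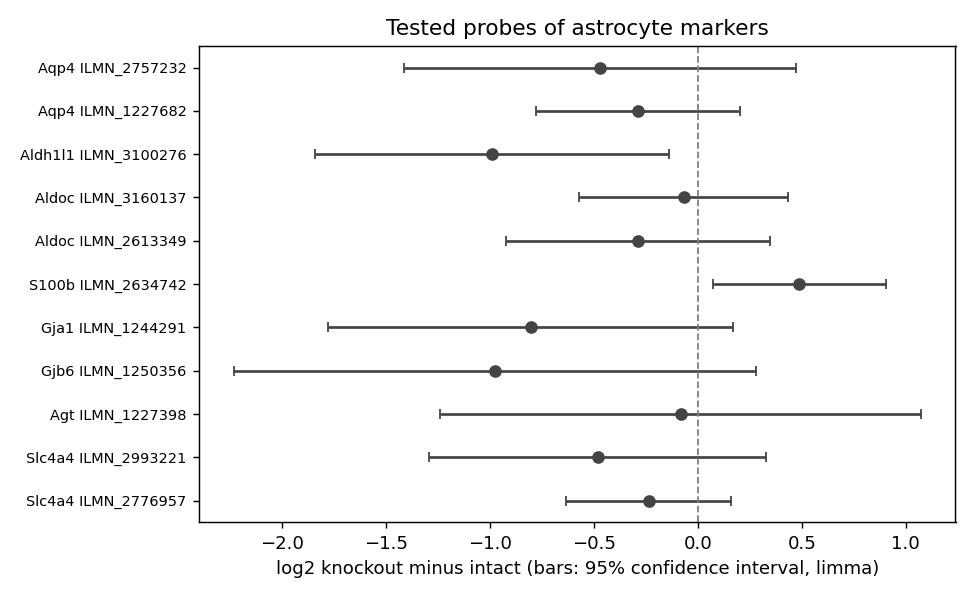
Difference in log2 normalized intensity, knockout minus intact (horizontal axis), for the 11 tested probes of astrocyte markers, with 95% confidence intervals from limma (n = 6 per group). The probe of S100b lies right of 0 and the other 10 left of it, and the intervals of 9 probes include 0.

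Knockout replicate 4 was an extreme array of the knockout group for every tested marker except Agt (7.58 there, in a knockout range of 6.43 to 8.84). Of the 8 markers, 6 had their lowest value on this array, against 14.8% of all genes tested, and S100b had its highest there. Its mean deviation, the average over the 8 markers of the log2 distance from each gene's mean, was -1.40, while the other 5 knockout arrays lay between -0.24 and 0.57. Intact replicates 4 and 6 were at the upper end with 1.02 and 0.77, and the other 4 intact arrays lay between -0.36 and 0.15. This measure averaged 0.21 ± 0.57 over the intact and -0.21 ± 0.66 over the knockout arrays (SD, n = 6 per group). Knockout minus intact was -0.42 (SE 0.36). It was -0.19 without knockout replicate 4 and 0.10 within the 2 intact and 3 knockout animals of the shared label series. Within the first 6 columns, where the intact group is replicate 3 alone, the same difference was 0.13, and 5 of 8 markers, Aqp4 (0.25), Gja1 (0.24), Slc4a4 (0.22), Agt (0.44) and Gjb6 (0.055), had a higher knockout mean besides S100b (0.43). Within the last 6, where the knockout group is replicate 1 alone, it was -0.52, and S100b (0.10) was the sole marker on the higher side, with Agt at -1.42, Gjb6 at -1.11 and Slc4a4 at -0.89. Aldh1l1 was at -0.42 in the first and -0.16 in the last columns.

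Spread within groups was wide for these markers. The SD of the 8 genes had a median of 0.56 (log2 scale) among intact arrays and 0.94 among knockout arrays, against 0.33 and 0.34 over all genes tested. Agt and Gjb6 varied more among intact tumours than 98.7% and 98.8% of all genes did, whereas Aqp4 and Gja1 varied more among knockout tumours than 98.8% and 98.6%. S100b varied least of the 8, with an SD of 0.38 in intact and 0.29 in knockout tumours.

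**Figure D3:**
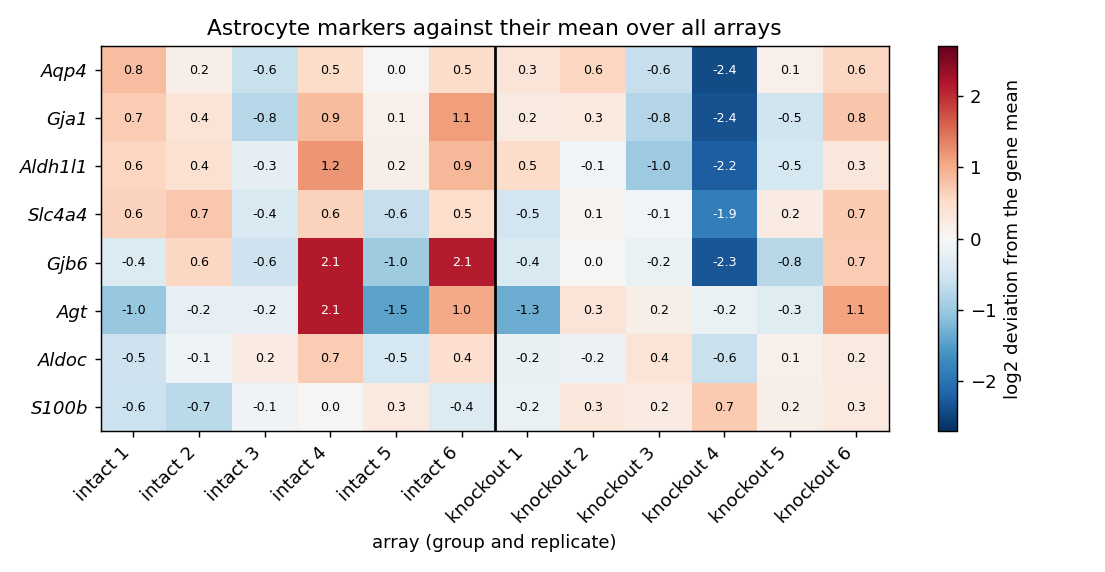
Log2 deviation of each of the 8 astrocyte markers (rows) from its mean over all 12 arrays (columns, intact left and knockout right of the line), with the value in each cell. Knockout replicate 4 is low for Aqp4, Gja1, Aldh1l1, Slc4a4 and Gjb6, and intact replicate 4 is high for Gjb6 and Agt.

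The markers did not vary as a single unit. After removal of the group means, over 12 arrays, Gja1 followed Aldh1l1 (r = 0.957) and Aqp4 (r = 0.943), and Aqp4 followed Aldh1l1 (r = 0.924). Without knockout replicate 4, over 11 arrays, these values were 0.905, 0.890 and 0.823. Slc4a4 followed Aqp4 (r = 0.830) and Gja1 (r = 0.808) over 12 arrays, and less closely over 11 (r = 0.560 and 0.576). Aldoc, Gjb6 and Agt were linked by r of 0.773 to 0.795 over 12 arrays and of 0.736 to 0.882 over 11. Gjb6 was linked about as closely to Gja1 (r = 0.769), Aldh1l1 (r = 0.749) and Slc4a4 (r = 0.745). Aqp4 was close to neither Agt (r = 0.132) nor Aldoc (r = 0.267). S100b ran against Slc4a4 (r = -0.585), Aqp4 (r = -0.528), Aldh1l1 (r = -0.489) and Gja1 (r = -0.477), and without knockout replicate 4 these weakened to between -0.382 and -0.200. All these values share the same arrays and the same normalization and are given as descriptions.

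Of the genes outside the set, 6 had the pattern most like the mean of the 8 markers, by r after removal of group means over 12 arrays. They were Hpcal1 (r = 0.959), a calcium sensor of neurons, Spop (0.952), an adaptor of a ubiquitin ligase, Kcnt1 (0.946), a sodium-activated potassium channel, Acot11 (0.946), an acyl-CoA thioesterase, Gjb2 (0.940), which encodes a connexin, and Cyb561 (0.933). Their r without knockout replicate 4 was 0.903 to 0.944. Within the set, r with that mean, to which each marker contributes, ran from 0.953 for Gjb6 down to 0.681 for Agt, and was -0.323 for S100b. That order depended on knockout replicate 4. Without it r was 0.950 for Gjb6, 0.875 for Agt, 0.589 for Aqp4 (0.798 with it) and 0.003 for S100b.

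A wider list of 38 astrocyte genes, of which 34 were measured, was read beside the set. By limma 0 of 34 were called, with 23 means lower and 11 higher in knockout tumours and a median difference of -0.33. Over all genes, 50.4% of means were lower. At an unadjusted p below 0.05 there were 8 of 34, 7 lower and 1 higher, against 11.9% of all genes. Those of smallest p were Slco1c1, a thyroid hormone transporter, at -0.75 (SE 0.16, adjusted p = 0.185), the claudin gene Cldn10 at -1.43 (SE 0.33, adjusted p = 0.196), the glutamate transporter gene Slc1a2 at -0.93 (SE 0.25, adjusted p = 0.212) and the neurotensin receptor gene Ntsr2 at -0.84 (SE 0.29, adjusted p = 0.284). For Slco1c1 every knockout array was below every intact array, and 0.65% of all genes had groups without overlap in either direction. Knockout replicate 4 was the lowest array for 14 of the 34, against 14.8% of all genes. Without that array the median was -0.22 with 25 means lower. Gfap, the intermediate filament gene of astrocytes, singled out after its values were seen, read 8.88 on that array, against 10.61 to 12.99 on the other 11. Of the list, S1pr1 was above background on 0 of 12 arrays.

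Partners of single markers were read as separate lists, and their direction differed between lists. Of 12 measured endfoot and water channel partners, 7 had lower and 5 higher knockout means (median -0.04), and by limma 0 were called and 0 had an unadjusted p below 0.05. Among them the sodium pump subunit gene Atp1b1 was at -0.59 (SE 0.32, adjusted p = 0.485), the ion channel gene Trpv4 at 0.45 (SE 0.23, adjusted p = 0.457), Sntb1 of the dystrophin complex, above background on 4 of 12 arrays, at -0.30 (SE 0.15) and its partner Dtna at -0.29 (SE 0.16). Of 9 other connexin and gap junction genes 4 were lower and 5 higher (median 0.0038), and limma called 0, with 0 at an unadjusted p below 0.05. Gjb2 stood at -0.75 (SE 0.43, adjusted p = 0.514) and Gjd2, a connexin gene of neurons, at -0.38 (SE 0.52).

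Among 7 measured renin-angiotensin genes 4 were lower and 3 higher (median -0.13), with 0 called by limma. Against 11.9% of all genes, 2 had an unadjusted p below 0.05. These were Atp6ap2, the prorenin receptor gene, at -0.50 (SE 0.18, adjusted p = 0.295) and the receptor gene Mas1 at -0.58 (SE 0.22, adjusted p = 0.339), the latter above background on 3 intact arrays and 1 knockout array. The angiotensin receptor-associated gene Agtrap was at -0.43 (SE 0.30). Of 7 genes of bicarbonate and acid-base transport, 4 were lower and 3 higher (median -0.10), limma called 0 and 0 had an unadjusted p below 0.05. The carbonic anhydrase gene Car2 read 5.77 on knockout replicate 4 and 7.87 to 10.90 on the other 11 arrays, and its difference was -0.88 (SE 0.58, adjusted p = 0.585).

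Of 7 folate and glycine enzymes, the pathway of Aldh1l1, 6 were lower and 1 higher (median -0.11). Limma called 0 of them and 0 had an unadjusted p below 0.05, with Shmt1 at -0.40 (SE 0.35) and Shmt2 at 0.29 (SE 0.23). Of 12 glycolysis genes, the pathway of Aldoc, 10 were lower and 2 higher (median -0.12), against 50.4% of all genes lower. Limma called 0, and hexokinase Hk1, at 0.51 (SE 0.23, limma adjusted p = 0.415), was the 1 with an unadjusted p below 0.05, against 11.9% of all genes. Of 8 lipoprotein genes related to Clu, 3 were lower and 5 higher (median 0.17). Limma called 0 and 0 had an unadjusted p below 0.05, with Apoe at 0.26 (SE 0.34) and the lipid transporter gene Abca7 at 0.27 (SE 0.18).

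Of 10 other genes of the S100 family, 8 had higher knockout means (median 0.15), against 7018 of 14155 genes in all. Limma called 0 of them and, against 11.9% of all genes, 2 had an unadjusted p below 0.05. S100a8, a gene of neutrophils and other myeloid cells, was at 1.55 (SE 0.54, adjusted p = 0.292) and S100a10, which encodes a partner of annexin A2, at 1.29 (SE 0.46, adjusted p = 0.292). On knockout replicate 4, S100a8 read 9.12, S100a9 7.05 and S100a10 9.18, each above the other 11 arrays, whose highest values were 8.56, 6.77 and 7.57. S100a16, at -0.34 (SE 0.24), had its lowest value there, 7.39. Of the 10 genes, 3 were highest and 3 lowest on that array, so the family was not raised there as a whole. Over all 14155 genes, 2124 were highest and 2098 lowest on it.

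Neuron and myelin markers had their lowest mean deviation on the same array as the astrocyte markers, knockout replicate 4. Progenitor markers did not, at 0.05. Microglia markers were low there too, at -0.64, near their lowest mean deviation of -0.70 on knockout replicate 3. Of 12 microglia genes, 6 had their lowest value on knockout replicate 4, against 14.8% of all genes. Of 15 neuron markers 13 were measured, and 13 of 13 had lower knockout means (median -1.21), against 50.4% of all genes. Their summed normalized intensity ran from 5038 to 43444 units in intact and from 3588 to 23178 in knockout tumours. The lowest of these sums was that of knockout replicate 4. Mean deviations of neuron markers were 1.72 and 0.90 on intact replicates 6 and 4, where astrocyte markers were highest, and -1.60 on knockout replicate 4. Intact replicate 2, at 1.22 for neurons, and knockout replicate 5, at -1.44, had astrocyte values of 0.15 and -0.18. The K-Cl cotransporter gene Slc12a5, counted among these 13, was above background on 0 knockout arrays and on 4 intact arrays. It therefore passed the filter on detection through the intact group alone.

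Myelin and oligodendrocyte markers, 11 of 12 measured, were lower in 11 of 11 means (median -0.46), against 50.4% of all genes. Their sums were 30198 to 71139 in intact and 21603 to 67442 in knockout tumours, the lowest again on knockout replicate 4. Oligodendrocyte progenitor markers, 9 of 10 measured, were higher in 8 of 9 (median 0.23), against 7018 of 14155 genes in all. Their sums were 47549 to 69469 and 59219 to 74926, and their mean deviation on knockout replicate 4 was 0.05. Microglia and macrophage markers, 12 of 14 measured, had sums of 5788 to 22340 and 6094 to 22912 (median difference 0.16), and endothelial and pericyte markers, 13 of 13, sums of 5448 to 14060 and 8067 to 17651 (median 0.25). Ependymal and choroid plexus markers, 6 of 9, had sums of 769 to 21604 and 479 to 20289, with Tmem212 above background on 0 of 12 arrays. Neural stem and neuroblast markers, 6 of 10, had sums of 2978 to 5195 and 4185 to 5419, and Cd24a was above background on 0 of 12 arrays. Limma called 0 genes in each of these lists. At an unadjusted p below 0.05 there were 4 neuron genes and 2 endothelial genes, each lower in knockout tumours. Slc12a5, which passed the filter on detection through the intact group alone, was among the 4 neuron genes and adds no support to their direction. There were also 2 progenitor genes and 1 stem cell gene, each higher, and 4 microglia genes, 2 lower and 2 higher. Myelin and ependymal genes at that level numbered 0, and the share over all genes was 11.9%. Ptprc, among the 4 microglia genes, was above background on 0 intact and 4 knockout arrays. Aspa of the myelin list was so on 3 intact and 0 knockout arrays. Both therefore passed the filter on detection through a single group. The part of other cell types in the astrocyte differences was not tested.

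**Figure D4:**
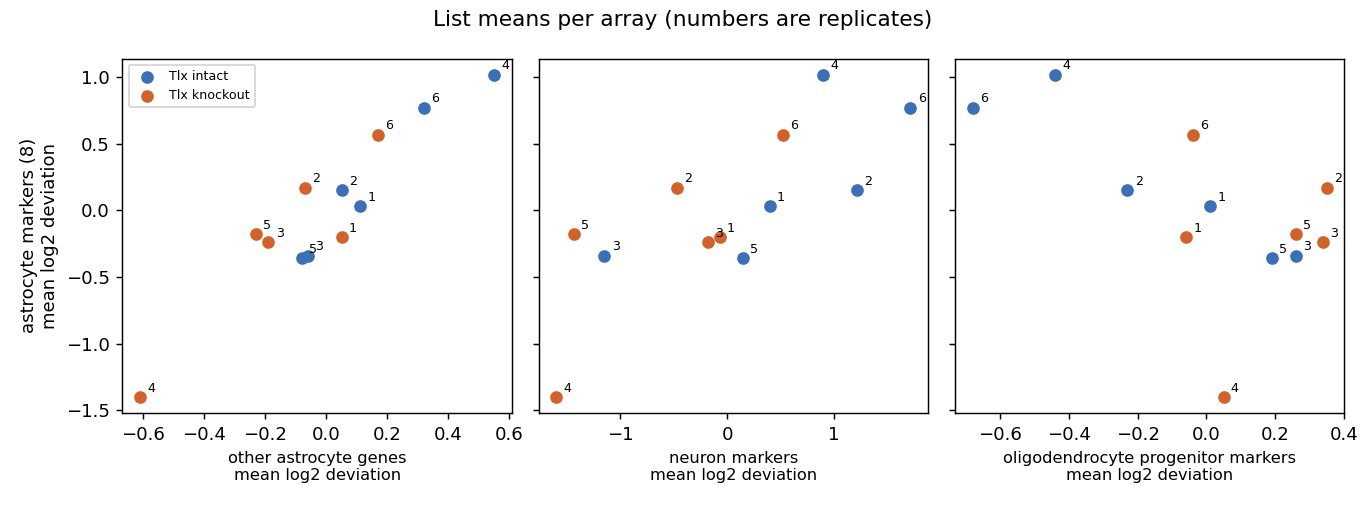
Mean log2 deviation of the 8 astrocyte markers (vertical axis) against that of 34 other astrocyte genes, 13 neuron markers and 9 oligodendrocyte progenitor markers (horizontal axes) on each array, intact in blue and knockout in orange with replicate numbers. Knockout replicate 4 is lowest for both astrocyte lists and for neurons (-1.40, -0.61 and -1.60), and lies at 0.05 for progenitor markers.

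The differences were also followed through 24 alternatives, of which 12 left out 1 array each. By limma 0 markers were called under each of the 24, with 8 markers tested, or 9 without the filter on dim probes. The probe count, which has no value where probes were averaged, was 0 under each of the others. Aldh1l1 kept a negative difference throughout, between -1.19 and -0.29, as did Gja1 (-1.04 to -0.07), Gjb6 (-1.26 to -0.10) and Slc4a4 (-0.67 to -0.16). With age as a covariate the differences were -0.84 for Aldh1l1, -0.56 for Gja1, -0.82 for Gjb6, -0.26 for Aqp4, -0.46 for Slc4a4, -0.18 for Agt, -0.19 for Aldoc and 0.31 for S100b. With the label series as a block, Aldh1l1 was at -0.59, Gja1 at -0.37, Aqp4 at -0.07, Slc4a4 at -0.34 and S100b at 0.88. With the column set as a block, Slc4a4 was at -0.34, Agt at -0.49, Aldoc at -0.21 and S100b at 0.26.

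**Figure D5:**
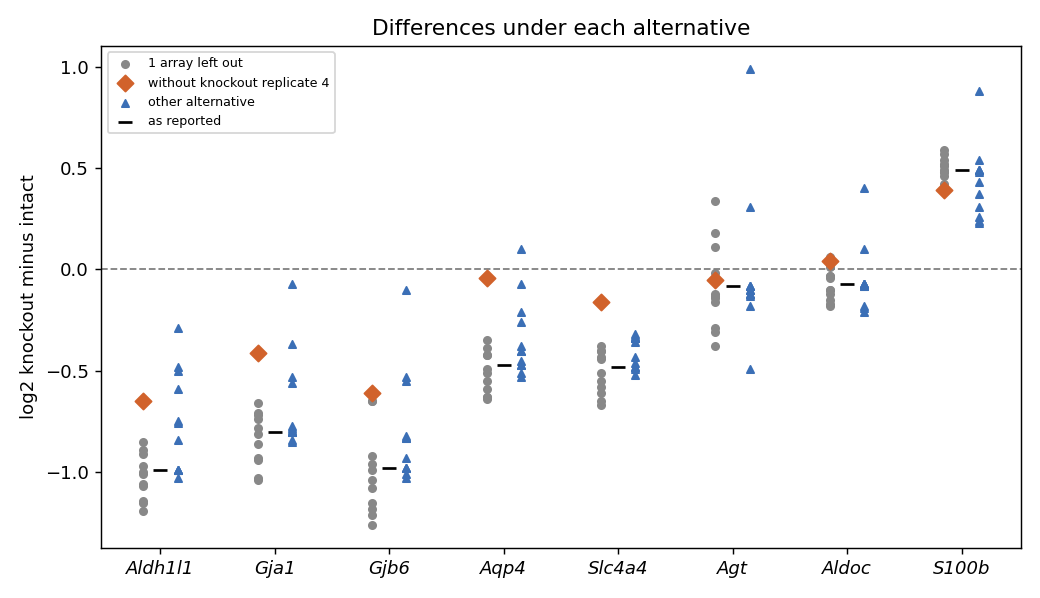
Difference in log2 normalized intensity, knockout minus intact (vertical axis), for the 8 astrocyte markers as reported (bar), with 1 array left out (grey), without knockout replicate 4 (orange) and under the other 12 alternatives (blue). Leaving out knockout replicate 4 brings Aldh1l1, Gja1, Gjb6, Aqp4 and Slc4a4 nearer to 0, and Agt and Aldoc fall on both sides of 0.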

How the data were processed

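Signal was measured on Illumina bead arrays in glioma RNA of 12 mice, 1 array each. Per the file headers, the authors deposited linear intensity values, not normalized between arrays, with detection p-values, for 45135 probes, and a second table of 45134 processed intensities, which served as an alternative and for which the sources used here name no normalization. The number of columns of other samples was 0. Probes were named through the platform annotation with symbols updated by Entrez identifier: 34772 had 1 gene symbol (34694 of them found in RefSeq), 18 several and 10345 none.

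From these, log2 values were computed with neqc (offset 16, quantile normalization) in limma 3.58.1 under R 4.3.3. Probes with detection p below 0.05 on at least 3 arrays were kept, and a gene was represented by its brightest such probe. Groups were compared with limma (lmFit, eBayes, two-sided) and Benjamini-Hochberg adjustment over all genes or all probes at 0.05. The fit was tested on simulated data. The number of arrays limits the precision.

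The members and the 16 other lists, 222 genes with the members, were chosen with earlier results of these data known. Named genes were all members, up to 4 genes per list by smallest unadjusted p, and the 6 genes most like the member mean. Replicates were numbered in order of deposition. Each array is labelled as a separate animal, and no batch is labelled.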

Additional observations from a re-analysis of the deposited data

Results flagged for a closer look

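In 26 sets of 6 arrays examined (11 probes, the mean deviation of the markers and age, in each group), 1 value stood apart from the rest by Dixon's criterion at 95%, where chance alone gives about 1 in 20. The second Aldoc probe read 4.97 on knockout replicate 3, with a gap to the next array of 0.651 of the group's range. The leading Aldoc probe read 13.17 on the same array, the highest of the knockout group.

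Among the probes left out of the tests, that of Mlc1 gave a signal above background on knockout replicate 4, at 5.79, and on 0 of 6 intact arrays.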

How the results depend on the processing

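Of 299 values recomputed under the alternatives, 288 kept their direction or stayed within the spread between replicates, and 11 single-gene differences changed sign, of which 0 were called. For the marker median and mean that spread, 0.72 and 0.62, was wider than the differences themselves, -0.48 and -0.42. Loss of the whole difference would therefore still count among the 288. Shrinkage without a change of sign counted there too, as for Gja1 at -0.07 with the column set as a block. Among the 288, the marker mean also changed sign with the label series as a block, at 0.10. With array weights Aldoc was at 0.10 and Agt at 0.31. With the column set as a block Aqp4 was at 0.10. With the label series as a block, a comparison within 2 intact and 3 knockout animals, Aldoc was at 0.40 and Agt at 0.99. Without intact replicate 4 Aldoc was at 0.06 and Agt at 0.34, without intact replicate 6 they were at 0.01 and 0.11, without knockout replicate 1 Agt was at 0.18, and without knockout replicate 4 Aldoc was at 0.04. The causes were not tested. Counts of called markers were 0 under each alternative by limma, as were counts of called probes, except that averaging probes leaves no such count. The median difference ran from -0.65 to -0.11 with 1 array left out and from -0.52 to -0.08 otherwise, and the difference of the marker mean from -0.58 to -0.19 and from -0.47 to 0.10. With 1 array left out, Aldoc ran from -0.18 to 0.06 and Agt from -0.38 to 0.34. The age difference ran from 14 to 20.2 days. The alternative without knockout replicate 4 for the other lists was added after the data were seen. No paired analysis was possible because the labels give the animals no shared replicate numbers. Low signal limits S100b, Aldh1l1 on knockout replicate 4, the second probes of Aqp4 and Slc4a4, and Mlc1.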
